A study of Mus musculus with 99 samples.

Results

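The 7 genes described here, Gabra2, Gabra3, Gabra4, Gabra5, Gabrb1, Gabrb2 and Gabrd, encode subunits of the GABA-A receptor, and were followed through 5 brain regions of juvenile mice. They were chosen by name, through the gene identifiers of the count files, out of 55335 genes counted, and all 7 were measured in each region. Another 12 subunit genes were counted and are given below only as counts or by name where a result concerns them, so each share of the subunit mix is a share of these 7 genes and not of all subunits. The mice were wildtype offspring of C57BL/6 dams whose drinking water held fentanyl, an opioid, at 10 µg/ml from embryonic day 0 of the pregnancy until the pups were weaned. Control offspring came from dams given water. Tissue punches of both sexes were taken from a midbrain region, the ventral tegmental area (VTA), from ventrobasal thalamus (VBT), from primary somatosensory (S1) and prelimbic (PrL) cortex and from nucleus accumbens (NAc), which gives 20 groups by region, sex and treatment. Of these, 19 had 5 libraries and 1, S1 of water males, had 4. One library, VTA male water 3, had reads in just 6333 genes, where all others had 24079 or more, and was left out, so 98 of 99 libraries were used and VTA water males had 4. The labels name no animal, litter or dam, and exposure acted through the dam, so p-values measure the spread between these libraries only. Libraries of different regions may come from the same animals: over genes, deviations from the group mean correlated at a median of 0.03 between same-numbered libraries of 2 regions (192 pairs) and -0.01 between differently numbered ones (769 pairs), and exceeded 0.1 in 8.85% and 2.34% of pairs.

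GABA-A receptors are pentameric chloride channels that open when GABA, the main inhibitory transmitter of the brain, binds between alpha and beta subunits. A gamma subunit usually completes the receptors of the synapse. The delta subunit, encoded by Gabrd, takes that place in receptors outside the synapse, where it pairs mostly with the alpha4 subunit in thalamic relay cells, striatal medium spiny neurons and the dentate gyrus and carries a tonic current. The alpha subunit largely sets the drug sensitivity and kinetics. Gabra3 is the characteristic alpha subunit of the GABA neurons of the reticular thalamic nucleus, which borders the VBT and is poor in alpha4 and delta, and Gabra5 is best known from the hippocampus and deep cortical layers.

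Totals over genes ran from 23032078 to 52069639 counts in the libraries used, and reads outside exons made up 9.48 to 17.0% of reads. The lowest count of any of the 7 genes in these libraries was 5, for Gabrd in VTA. In regional means, the labels matched the marker genes given here in CPM, the counts of a gene scaled to the library's total. The dopamine transporter gene Slc6a3 averaged 388 CPM in VTA and at most 0.94 elsewhere. The thalamic kinase gene Prkcd averaged 1568 CPM in VBT and at most 15.8 elsewhere, the dopamine receptor gene Drd1 averaged 224 CPM in NAc and at most 13.3 elsewhere, and Slc17a7, the vesicular glutamate transporter gene of cortical projection neurons, averaged 1164 CPM in S1 and 1552 CPM in PrL against at most 501 elsewhere. Single NAc and PrL libraries held high levels of markers of other tissue, as given below. In bulk punches, fewer cells of a type and less RNA per cell cannot be told apart.

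In water libraries each region had its own mix of the 7 subunits. The shares of Gabra4 and Gabrd, the alpha4 and delta pair, spanned the most percentage points between regions, closely followed by that of Gabra3. The mix was taken as each gene's counts per kilobase of exon as a percentage of the sum over the 7, in each library. In VBT (n = 10) Gabra4 made up 33.3% ± 3.27 (SD), Gabrd 26.2% ± 2.23 and Gabrb2 23.0% ± 1.99, and Gabra5 only 0.83% ± 0.41. Gabra3 held 7.22% ± 3.23 there in females and 9.13% ± 3.82 in males (n = 5 each). In VTA (n = 9) Gabra3 led with 33.2% ± 1.32, followed by Gabrb2 with 26.4% ± 3.70 and Gabrb1 with 16.4% ± 1.46, whereas Gabra4 held 5.71% ± 1.01 and Gabrd 0.33% ± 0.19. Gabra3 also led in both cortical regions, with 30.6% ± 1.65 in PrL (n = 10) and 25.7% ± 1.24 in S1 (n = 9). PrL held more Gabra5, 12.2% ± 2.07 against 5.82% ± 0.55 in S1, and S1 more Gabrd, 16.5% ± 1.46 against 9.43% ± 1.79 in PrL. The NAc mix (n = 10) was the most even, from Gabrd at 18.6% ± 3.60, Gabra3 at 17.8% ± 3.61 and Gabra4 at 16.6% ± 1.61 down to Gabrb1 at 10.0% ± 0.97.

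**Figure D1:**
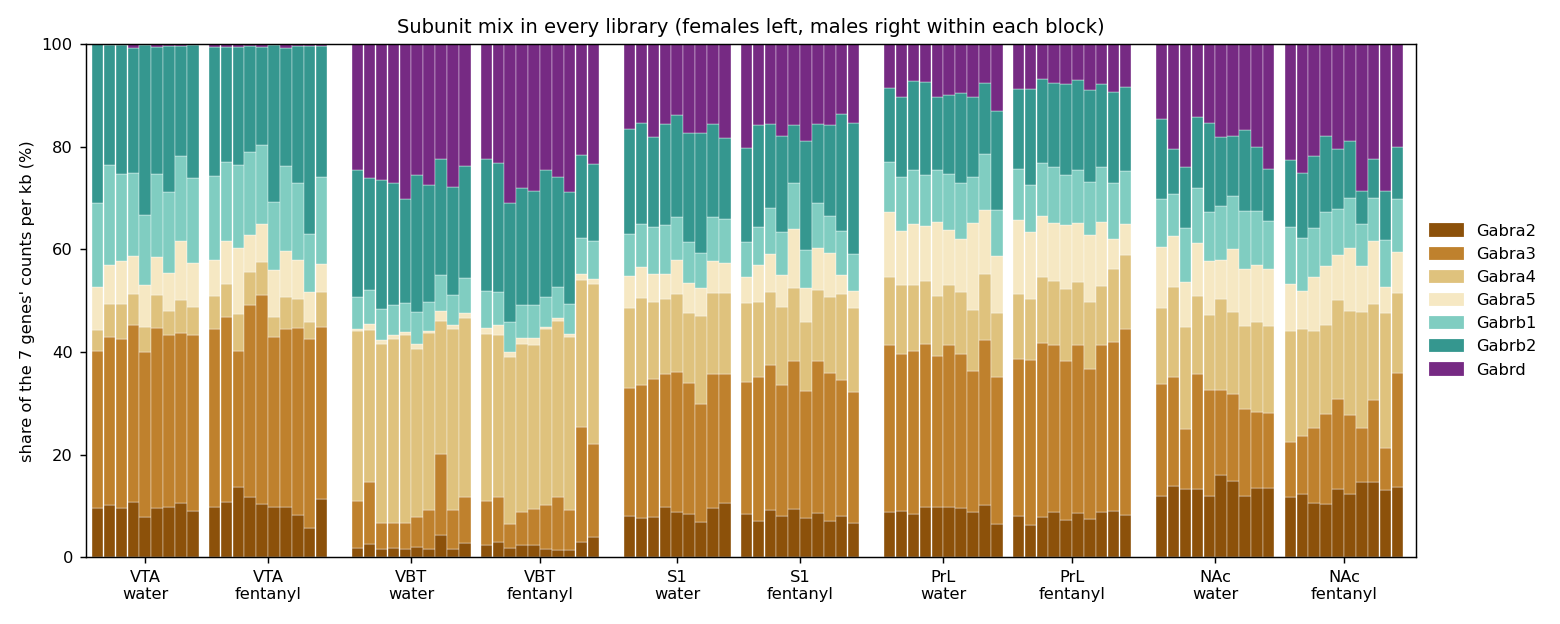
Stacked bars, 1 per library, of the 7 subunit genes' shares (in %, vertical axis) of their summed counts per kilobase of exon, in blocks by region and treatment (horizontal axis), with females to the left and males to the right of each block. VBT bars are filled mainly by Gabra4, Gabrd and Gabrb2, VTA bars have almost no Gabrd, and Gabra3 widens to 22.4% in 1 VBT library of a fentanyl male.

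Differences between regions were tested over the 48 water libraries in 1 fit by edgeR, with sex as a covariate. A gene is called when its p, adjusted by Benjamini-Hochberg over all genes tested in that pair of regions, is under 0.05. The 7 genes gave 57 calls in 70 tests over the 10 region pairs. Regions differ in much of the transcriptome, so this count is read against the share of all 20216 tested genes that were called. All 7 were called between VTA and PrL (68.2% of all genes), VBT and PrL (70.1%), and VBT and NAc (69.8%). In the last pair Gabrb1 lost its call with offsets for GC content (-0.05, edgeR adjusted p = 0.54, against -0.21) and without VBT male water 3 (-0.18, adjusted p = 0.051). Another 6 of 7 were called between VTA and VBT (54.4%), VTA and S1 (69.2%), VBT and S1 (69.8%), and PrL and NAc (52.1%). Between VTA and NAc (66.2%), S1 and PrL (39.5%), and S1 and NAc (55.1%) 4 of 7 were called. In 37 of the 70 comparisons the 2 regions' libraries did not overlap, against 24.8% over all tested genes and the same pairs. With the number within each sex as a block across regions, 58 of 70 were called. Of the 57 calls, 55 were also made, in the same direction, between the fentanyl libraries of the same regions, which come from other punches. The like share over all called genes was not computed, so this agreement is not read as particular to the 7 genes.

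Among the alpha subunit genes, the largest difference between any 2 regions ran from 3.50-fold for Gabra3 to 14.9-fold for Gabra4. Gabra4 ran from a lowest value of 188 through a median of 391 to a highest of 472 CPM in VBT water libraries. It ran from 129 through 150 to 179 CPM in S1, from 124 through 142 to 189 CPM in NAc, and from 113 through 127 to 139 CPM in PrL. In VTA it ran from 20.6 through 27.7 to 38.8 CPM. VBT and VTA thus lay apart from the other regions on opposite sides, with no VBT library inside the S1 or PrL range and 1 VBT library, at 188 CPM, inside the NAc range. The level was 14.9-fold lower in VTA than in VBT (log2 difference -3.90, SE 0.13, edgeR adjusted p = 9.7e-28). S1, NAc and PrL were neighbours in this order whose differences were not called (S1 minus NAc 0.13, adjusted p = 0.34, and NAc minus PrL 0.12, adjusted p = 0.38, both by edgeR).

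Gabra2, an alpha subunit of forebrain synapses, was highest in NAc, at 148 ± 18.1 CPM (SD, n = 10), with a range of 125 to 184 CPM. PrL followed at 115 ± 13.8 CPM and S1 at 106 ± 13.8 CPM, a difference that was not called (S1 minus PrL -0.13, edgeR adjusted p = 0.26), and that was called with offsets for GC content (-0.24, adjusted p = 0.0090). VTA had 60.4 ± 9.28 CPM, and VBT had 29.9 ± 5.76 CPM with a highest value of 40.1 CPM, below the lowest of every other region. The fold from VBT to NAc was 4.53 (log2 difference -2.18, SE 0.09, edgeR adjusted p = 1.6e-25).

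Gabra3 was highest in PrL, where it ran from 185 through 199 to 220 CPM, and next in S1, from 148 through 161 to 176 CPM. It ran from 90.9 through 101 to 124 CPM in VTA, from 71.7 through 95.2 to 132 CPM in NAc and from 40.9 through 56.3 to 73.0 CPM in VBT. All neighbours in this order were called as different except VTA and NAc (0.07, edgeR adjusted p = 0.54), which were called in fentanyl libraries (0.53, adjusted p = 0.00039). The VBT and NAc ranges just met, while every PrL library lay above every S1 library and every S1 library above every VTA library.

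Gabra5 had the lowest mean CPM of the alpha genes and was the only member called in all 10 region pairs. Per kilobase of exon it was not the lowest everywhere. It lay above Gabra4 in VTA (6.73 against 4.66 CPM per kilobase) and above Gabra2 in PrL (20.2 against 15.1). Its means were 60.2 ± 10.8 CPM in PrL, 44.7 ± 5.41 CPM in NAc, 27.8 ± 3.42 CPM in S1, 20.01 ± 3.67 CPM in VTA and 4.26 ± 1.32 CPM in VBT. VBT was 13.7-fold below PrL (log2 difference -3.78, SE 0.13, edgeR adjusted p = 1.2e-28), with no VBT water library above 6.26 CPM and no PrL water library below 49.9 CPM.

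Gabra2, Gabra4 and Gabrb1 lie side by side on chromosome 5 and still differed in their regional order. In GRCm38 coordinates Gabra2 covers chr5:70957597-71095849 and Gabra4 chr5:71569749-71658308, both on the minus strand, and Gabrb1 covers chr5:71658113-72149037 on the plus strand. Gabra4 and Gabrb1 start head to head and their annotated transcripts overlap by 196 bases. Gabra3 lies at chrX:72432681-72656848, Gabrb2 at chr11:42419757-42629028 (plus strand) and Gabrd at chr4:155384980-155398112. Gabra5, at chr7:57407672-57510059, overlaps another gene on the other strand, and the library kit does not mark strand, so reads in exon sequence that both genes share cannot be told apart. The bases upstream of the 3 alpha genes with the widest regional range are printed. They allow Gabra4 to be compared with Gabra2 and Gabra5, whose regional orders differ from that of Gabra4 and are close to each other. Each runs 5′ to 3′ on the minus strand and ends before the first annotated exon base of any gene. For Gabra4 this leaves out the 55 bases next to its start, which lie in an exon of Gabrb1 on the other strand, and the printed stretch lies inside the Gabrb1 gene. Capitals mark a GC box, the letters GGGCGG or their reverse complement CCGCCC.
Gabra2, chr5:71095850-71096099: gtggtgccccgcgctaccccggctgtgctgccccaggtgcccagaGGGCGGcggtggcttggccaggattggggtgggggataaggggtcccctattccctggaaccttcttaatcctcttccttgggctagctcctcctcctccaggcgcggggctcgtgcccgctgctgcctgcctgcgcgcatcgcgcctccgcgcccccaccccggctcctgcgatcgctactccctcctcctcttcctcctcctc
Gabra4, chr5:71658364-71658558: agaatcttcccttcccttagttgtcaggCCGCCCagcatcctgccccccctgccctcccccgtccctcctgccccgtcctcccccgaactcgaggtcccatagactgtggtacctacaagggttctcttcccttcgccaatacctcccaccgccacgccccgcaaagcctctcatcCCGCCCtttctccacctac
Gabra5, chr7:57510060-57510309: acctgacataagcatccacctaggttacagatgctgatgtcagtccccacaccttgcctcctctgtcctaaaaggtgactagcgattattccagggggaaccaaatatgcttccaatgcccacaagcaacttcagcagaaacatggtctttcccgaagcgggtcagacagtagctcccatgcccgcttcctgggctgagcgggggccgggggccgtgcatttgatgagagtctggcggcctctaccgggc
The sequences are from RefSeq on GRCm38.p6, whose promoter table held windows for 6 of the 7 genes, 10 windows in all, and none for Gabrd. In the 250 bases before the start, a GC box on either strand occurred in 3 of these 10 windows, 1 each of Gabra2, Gabra4 and Gabrb2, against 32.7% of all 32851 windows. TATAAA or its reverse complement occurred in 3 of the 10, of Gabra3 and Gabrb2, against 12.4% of all. The windows of Gabra3 overlap and those of Gabrb2 lie close together, so the 10 windows are not separate units. Neither TGACGTCA (1.55% of all) nor GCGTGGGCG (0.536% of all) occurred in any window of these genes on either strand. A match is a description of the letters only. GC content of these bases ran from 36.8% in a window of Gabrb2 to 70.0% in that of Gabra2.

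The beta subunit genes were more even. Gabrb1 was highest in PrL, with 205 through 234 to 263 CPM, and lowest in VBT, with 115 through 164 to 185 CPM. Its largest difference between any 2 regions was that pair, 1.44-fold (log2 -0.52, SE 0.08, edgeR adjusted p = 3.6e-07), and NAc, S1, VTA and VBT, with means of 200 ± 24.6, 187 ± 12.9, 186 ± 37.0 and 157 ± 21.7 CPM, were each not called against the next in order. Gabrb2 was highest in VBT, at 271 ± 59.3 CPM (SD, n = 10), and fell through S1 (200 ± 30.8 CPM), PrL (171 ± 25.2 CPM) and VTA (136 ± 22.4 CPM) to NAc (120 ± 23.4 CPM). S1 and PrL were not called (0.21, edgeR adjusted p = 0.19), nor were VTA and NAc (0.17, edgeR adjusted p = 0.24), though the latter were in fentanyl libraries (0.44, adjusted p = 0.019). The range between extremes was 2.48-fold (VBT minus NAc 1.31, SE 0.13, edgeR adjusted p = 1.2e-12).

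Gabrd, the delta subunit gene, showed the widest contrast of the 7. VBT libraries ran from 76.5 through 145 to 180 CPM, NAc from 59.2 through 75.2 to 108 CPM, S1 from 65.2 through 76.7 to 85.8 CPM and PrL from 34.9 through 46.2 to 62.1 CPM. VTA libraries ran from 0.16 through 0.67 to 1.49 CPM, or 5 to 51 reads, and none came near another region. The difference between VTA and VBT was 204-fold (log2 -7.67, SE 0.21, edgeR adjusted p = 2.6e-31). NAc and S1 were not called (adjusted p = 0.73 by edgeR), and with TMM scaling the fit put S1 above NAc by 0.06 while the mean CPM put NAc above S1. As CPM per kilobase of exon (RPKM), the scale on which genes can be compared, Gabrd in VBT reached 48.7, close to Gabra4 at 62.3 and Gabrb2 at 42.6, and all 3 lay above Gabra3 (14.1), Gabrb1 (11.4), Gabra2 (3.91) and Gabra5 (1.43). In VTA, Gabra4 (4.66 RPKM) and Gabrd (0.26 RPKM) were the lowest and Gabra3 (26.9 RPKM) the highest.

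**Figure D2:**
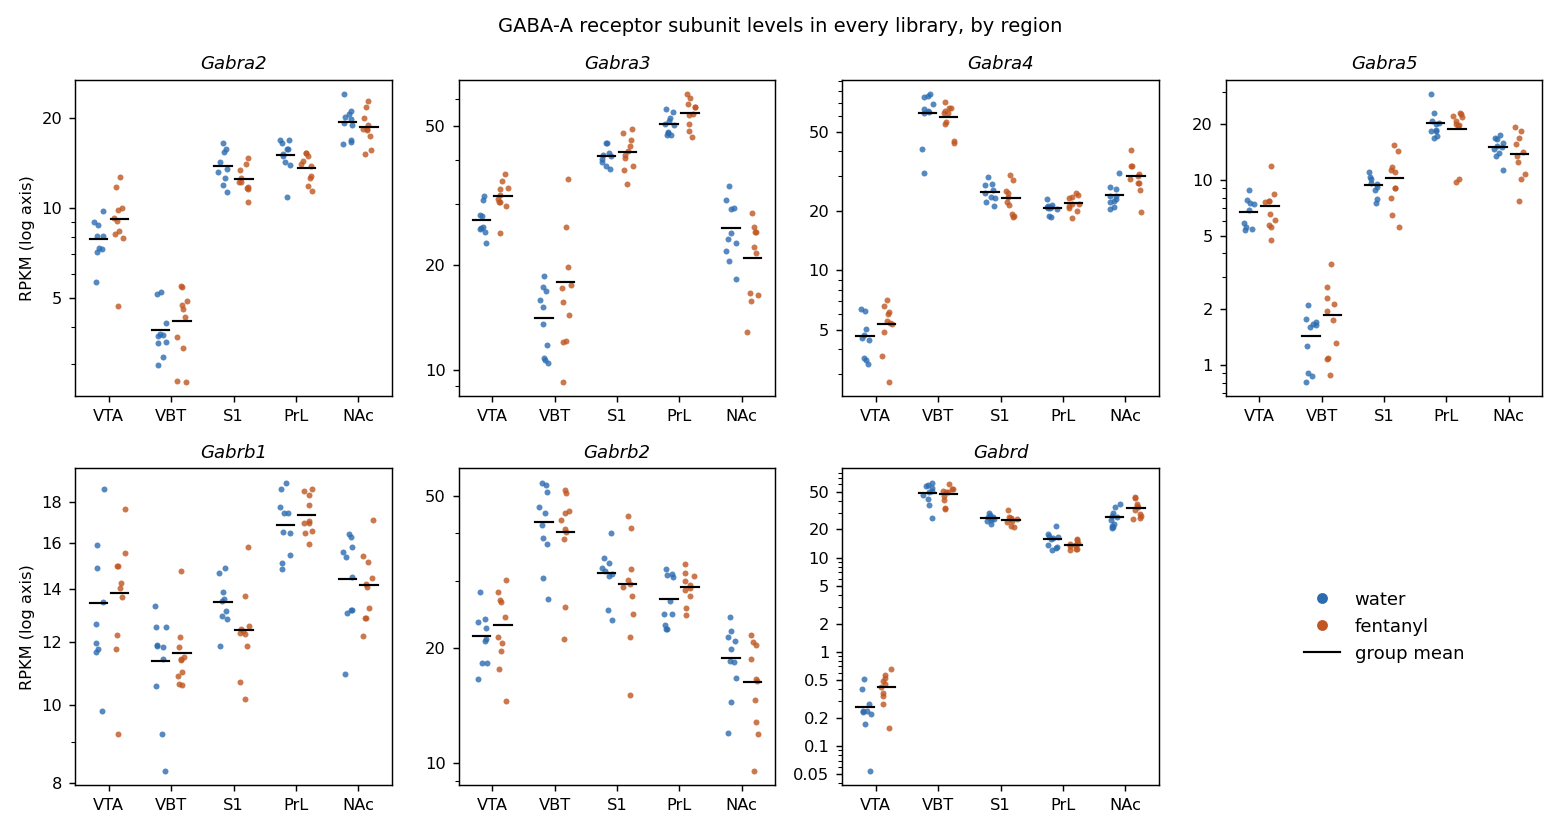
Level of each subunit gene in RPKM (log axis) in every library used, by region, with water in blue, fentanyl in orange and black lines for group means of 9 or 10 libraries. Gabra4 and Gabrd peak in VBT and drop in VTA, Gabra5 drops in VBT, and Gabrb1 spans less than the other genes.

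Across all 98 libraries, Gabra4 and Gabrd were the most alike pair of the 7, with Pearson's r of 0.95 between their log2(CPM + 1) values, followed by Gabra2 and Gabra5 with 0.90. These points share regions, so the correlation describes mainly the regional pattern. Outside the 7, among 10162 protein-coding genes with a mean of at least 10 CPM, the closest to Gabrd was Atp2b1, a plasma membrane calcium pump gene (r = 0.98), and then Nin (0.96). The closest to Gabra4 were Rgs7bp (0.95) and the postsynaptic scaffold gene Shank3 (0.94). Zmynd11 and Cacna1e, a calcium channel gene, were closest to Gabra2 (both 0.96), Adcy2, an adenylyl cyclase gene, and Tbc1d24 to Gabra3 (0.95 and 0.94), and Atp2b4, another calcium pump gene, to Gabra5 (0.95). Myo5a (0.93) and Clec16a (0.89) were closest to Gabrb2, and no gene exceeded the r of 0.83 of Xpot for Gabrb1, whose second closest was March6 (0.82).

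Within VBT and NAc, several of the 7 genes rose or fell with a score of marker genes of other cells or tissue, 5 of 7 in VBT and 4 of 7 in NAc by Pearson's r. Much of the transcriptome did so as well: an r at least as far from 0 as that of the weakest of these genes was found for 9.8% of the other genes tested in VBT and 25.5% in NAc. A marker score is the mean log2(CPM + 1) over a list of genes, and 21 relations of the 7 genes with 1 score in VBT, NAc or VTA were tested by permutation with 100000 resamples and adjusted by Benjamini-Hochberg over the 21. In VBT the score covered 6 GABA neuron genes (Gad1, Gad2, Slc32a1, Pvalb, Ecel1 and Isl1), all detected in each library. Gad1, which makes the GABA-synthesising enzyme GAD67, ran from 177 to 1106 CPM. Gabra3 rose with this score over the 20 VBT libraries (r = 0.72, adjusted permutation p = 0.0018; Spearman's rho 0.71, adjusted p = 0.0019). Gabrd fell with it (r = -0.73, rho -0.72), as did Gabrb2 (r = -0.70, rho -0.76), Gabra4 (r = -0.69, rho -0.70) and Gabrb1 (r = -0.69, rho -0.76), all with adjusted permutation p of at most 0.0038. Gabra2 (r = 0.11) and Gabra5 (r = -0.14) showed no such relation, with adjusted permutation p of 0.70 and 0.64.

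The VBT relations did not rest on the groups or on the extremes. Without the 2 libraries farthest from the median score, r was 0.66 for Gabra3, -0.74 for Gabrd, -0.64 for Gabrb2, -0.68 for Gabra4 and -0.71 for Gabrb1. With each library taken relative to its group mean, r was 0.67, -0.71, -0.66, -0.74 and -0.65 in the same order. Among water libraries alone the r of Gabra3 was 0.81 and among fentanyl libraries 0.85, and in females it was 0.63 and in males 0.65. The score differed between sexes in both treatments, with means of 6.12 and 6.08 in water and fentanyl females and 6.83 and 6.85 in water and fentanyl males. The library with the lowest Gabra4 and Gabrd of VBT water, male water 3, had a score of 7.40, and the pair of fentanyl males with the highest Gabra3 (138 and 101 CPM) had scores of 7.43 and 6.93.

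In NAc the score covered 6 cortical genes, all detected in every library, of which Slc17a7 ran from 42.1 to 1183 CPM. Gabra3 rose with it (r = 0.89, rho 0.84, adjusted permutation p = 0.00021 and 0.00063), and Gabra4 (r = -0.76, rho -0.71) and Gabrd (r = -0.82, rho -0.81) fell with it. Without the 2 farthest libraries r was 0.88, -0.71 and -0.82, and relative to group means it was 0.87, -0.75 and -0.80. Gabra5 had an r of 0.50 (adjusted permutation p = 0.047) and a rho of 0.43 (adjusted permutation p = 0.11). In VTA, only Gabrb2 moved with the score of 6 midbrain genes (r = -0.57, adjusted permutation p = 0.022), and r was -0.41 without the 2 farthest libraries and rho -0.47 (adjusted permutation p = 0.09), so that relation rests partly on those libraries. The share of all genes with an r this far from 0 was not computed in VTA, so this relation is not read as particular to Gabrb2.

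**Figure D3:**
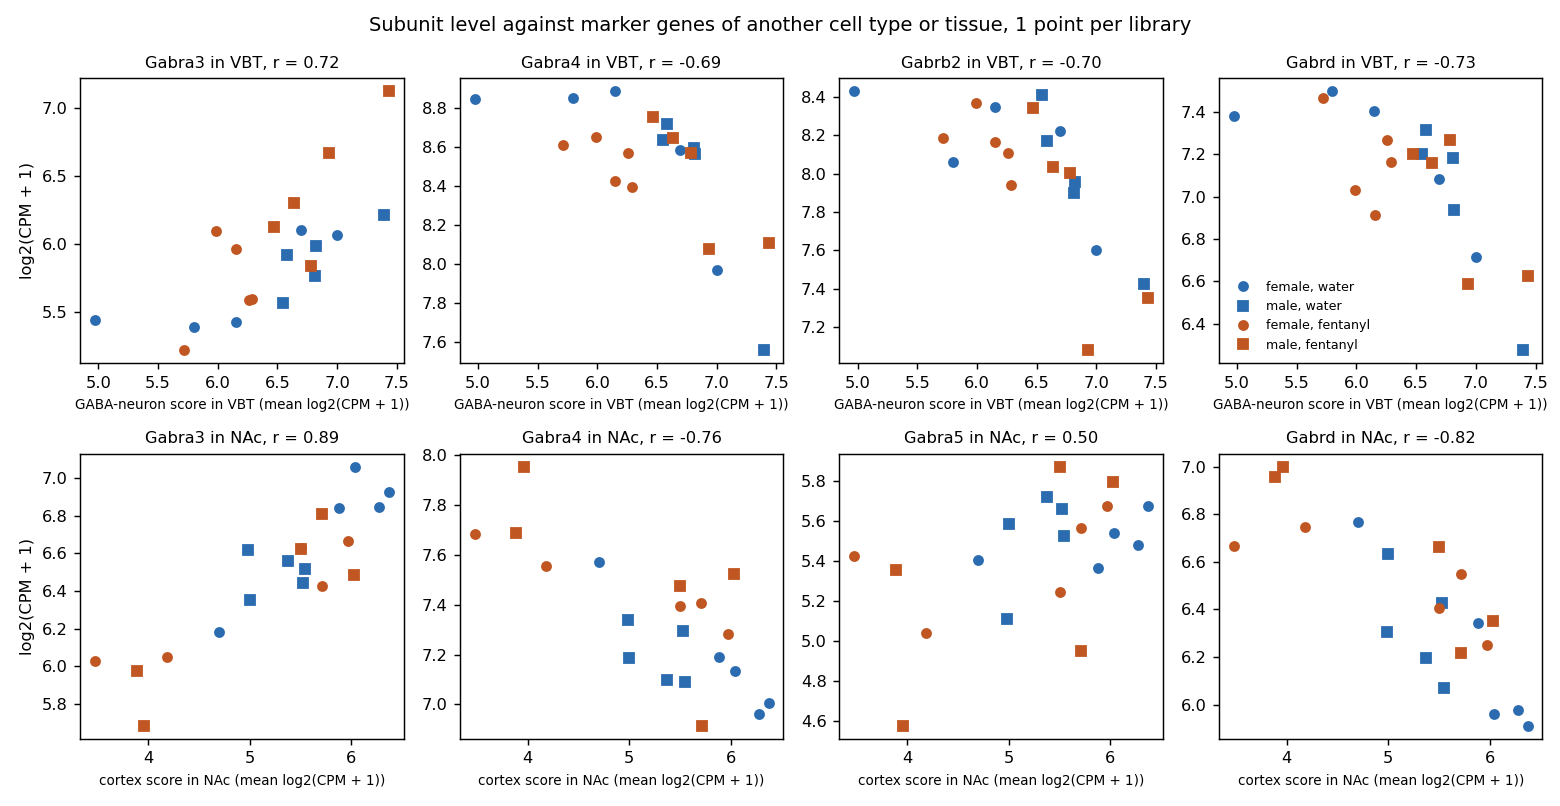
Level of subunit genes as log2(CPM + 1) (vertical axes) against the marker score of the library (mean log2(CPM + 1), horizontal axes), for GABA neuron genes in VBT (top) and cortical genes in NAc (bottom), 1 point per library, with circles for females and squares for males, blue for water and orange for fentanyl. Gabra3 rises with both scores (r = 0.72 and 0.89) while Gabra4 and Gabrd fall.

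Fentanyl was compared with water within each region, in females, in males, as their average and as the difference between the sexes (male minus female). Of 105 tests of the 7 genes in single sexes and averages, edgeR called 3, all in VTA, and in 2 of the 70 tests within 1 sex the groups did not overlap, against 4.19% over all genes tested. None of the 35 tests of the difference between sexes was called, with 2 at an unadjusted p under 0.05, against 8.3% over all genes and regions. DESeq2 called the same number of members as edgeR in each region and contrast except the VTA average.

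In VTA males, Gabra3 was higher after fentanyl. The 5 fentanyl libraries had 119, 116, 143, 119 and 136 CPM, and the 4 water libraries 101, 97.7, 99.6 and 109 CPM. All fentanyl values lay above all water values, and the groups were likewise apart in 22.4% of all genes in this comparison. The fitted log2 difference was 0.36 (SE 0.09, edgeR adjusted p = 0.0099). Gabrb2 had 178, 125, 170, 192 and 168 CPM in fentanyl males and 116, 134, 105 and 133 CPM in water males, with 1 fentanyl library inside the water range, and the log2 difference was 0.49 (SE 0.16, edgeR adjusted p = 0.032). These 2 calls of 7 stand against 22.0% of all 19822 genes called in this comparison, 11% as higher. All 7 genes had a positive log2 difference, with a median of 0.21 against 0.00 over all genes (with the offsets for GC content described below, 3 of the 7 were negative and the median was 0.00, against 0.02 over all genes).

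In VTA females no member was called by edgeR, nor was any other gene (0.0%), with Gabrd at an unadjusted p under 0.05, as were 12.7% of all genes. Gabra3 had 130, 130, 96.9, 124 and 122 CPM in fentanyl females against 109, 124, 121, 100 and 90.9 CPM in water females, which overlap (log2 0.13, 95% interval -0.04 to 0.30). Averaged over the sexes Gabra3 was called (log2 0.24, SE 0.06, edgeR adjusted p = 0.0088), 1 of 7 against 23.1% of all genes, 11.1% as higher. Gabrb2 had 153, 131, 136, 112 and 92.4 CPM in fentanyl females against 178, 144, 149, 116 and 151 CPM in water females (log2 -0.26, 95% interval -0.55 to 0.03). The difference between the sexes for Gabrb2 was 0.75 (unadjusted p = 0.0025, edgeR adjusted p = 0.42), and no gene passed that test in VTA (0.0%). Gabrd stayed near 1 CPM in VTA, at 1.23 ± 0.42 CPM in 10 fentanyl libraries and 0.75 ± 0.38 CPM in 9 water libraries, with overlapping ranges (log2 average 0.70, edgeR adjusted p = 0.081). DESeq2 called it (adjusted p = 0.045), as did edgeR without VTA female water 4 (0.94, adjusted p = 0.018) or without VTA male fentanyl 1 (0.81, adjusted p = 0.043). Leaving out VTA male fentanyl 4 instead added a call of Gabra2 in the average (0.30, edgeR adjusted p = 0.035).

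The VTA libraries also differed in how gene levels related to GC content. In each library, the deviation of genes from the regional mean was correlated with their GC content (Spearman's rho across genes, over genes with a mean of at least 50 counts). Male water libraries had a rho of 0.54 to 0.66, male fentanyl libraries -0.51 to -0.11, female fentanyl libraries -0.57 to 0.03, and female water libraries fell in 2 sets, at -0.33, -0.31 and -0.24 and at 0.67 and 0.55. The transcripts of Gabra3 and Gabrb2 have GC contents of 43.1% and 44.0%. With offsets that remove a trend in GC from each library, Gabra3 had log2 differences of 0.17 in males (edgeR adjusted p = 0.22) and 0.11 on average (adjusted p = 0.27) and Gabrb2 of 0.33 in males (adjusted p = 0.21). Gabra2 (-0.08), Gabrb1 (-0.07) and Gabra4 (-0.03) were then negative in males, and Gabrd had 0.66 in males and 0.84 on average (adjusted p = 0.38 and 0.090). No member was then called, against 3.62% of all genes in males and 4.32% on average. The VTA marker score was also lower in fentanyl males (mean 5.20, range 3.94 to 6.07) than in water males (6.07, 5.63 to 6.47). With this score as a covariate Gabra3 kept its call in males (0.40, edgeR adjusted p = 0.023) and Gabrb2 did not (0.32, adjusted p = 0.17), while Gabrd was called on average (1.05, adjusted p = 0.022). In that fit 9.04% of all genes were called in males and 13.6% on average. Gabrb2 also lost its call without any 1 of 6 male libraries (fentanyl 1, 3 or 4, or water 1, 4 or 5), with log2 differences of 0.42 to 0.52 and edgeR adjusted p of 0.053 to 0.11. The part of GC content and punch placement in these differences was not tested.

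**Figure D4:**
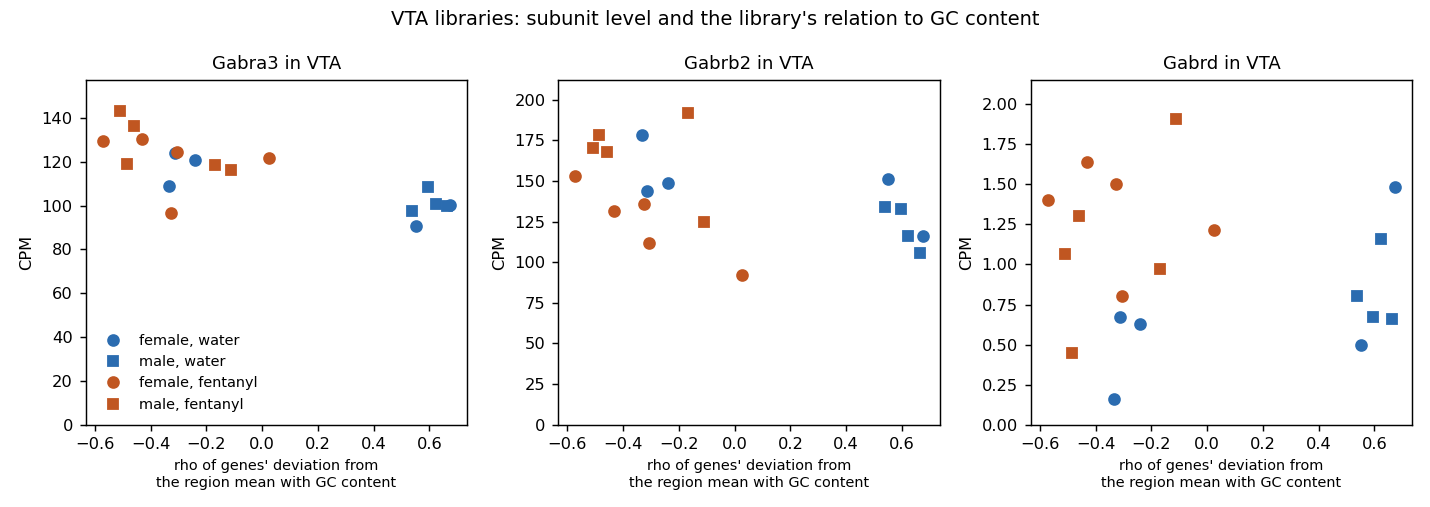
Level of Gabra3, Gabrb2 and Gabrd in CPM (vertical axes, from 0) in 19 VTA libraries against each library's rho of genes' deviation from the regional mean with GC content (horizontal axes), with circles for females, squares for males, blue for water and orange for fentanyl. The 4 male water libraries sit at a rho of 0.54 to 0.66, apart from all fentanyl libraries, and hold 97.7 to 109 CPM of Gabra3.

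In VBT none of the 7 was called in females, in males or on average by edgeR or DESeq2, and edgeR called no gene at all (0.0% of 18923). The unadjusted p was under 0.05 for 1 of 7 in females (7.86% of all genes), 1 in males (8.7%) and 0 on average (8.49%). The largest difference in this region was in Gabra5, the gene nearly absent there. Fentanyl females had 6.79, 10.4, 5.81, 6.37 and 7.82 CPM and water females 2.68, 4.77, 4.85, 4.91 and 2.60 CPM, which do not overlap, as in 2.06% of all genes there (log2 0.89, SE 0.24, unadjusted p = 0.0016, edgeR adjusted p = 0.42). Fentanyl males had 3.19, 3.25, 2.60, 5.17 and 3.88 CPM and water males 5.25, 2.40, 6.26, 3.76 and 5.09 CPM (log2 -0.35, 95% interval -0.84 to 0.14), and the difference between the sexes was -1.25 (edgeR adjusted p = 0.28). Gabra3 in VBT males had 68.7, 77.6, 56.2, 138 and 101 CPM after fentanyl and 46.2, 59.4, 73.0, 53.2 and 62.2 CPM after water (log2 0.56, unadjusted p = 0.017, edgeR adjusted p = 0.44). The pair of highest values came from libraries with GABA neuron scores of 7.43 and 6.93, the second close to the male group means of 6.83 to 6.85. The part of punch placement in this difference was not tested. Gabra4 and Gabrd differed by -0.15 to -0.02 in the sexes, with intervals that reach from -0.56 to 0.39.

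In NAc no member was called in females (0.0% of genes called), in males (0.662%) or on average (0.0%), and the unadjusted p was under 0.05 for 1, 3 and 2 of the 7, against 9.03%, 17.6% and 12% of all genes. Gabra4 had 204, 187, 169, 155 and 167 CPM in fentanyl females against 127, 145, 189, 140 and 124 CPM in water females. In males it had 183, 205, 177, 246 and 120 CPM after fentanyl and 161, 136, 135, 156 and 145 CPM after water. Groups overlapped in both sexes, and the average log2 difference was 0.33 (SE 0.10, 95% interval 0.13 to 0.54, edgeR adjusted p = 0.28). Gabrd, its delta partner, averaged 96.3 ± 18.8 CPM in fentanyl and 77.1 ± 16.4 CPM in water libraries (log2 0.34, SE 0.12, edgeR adjusted p = 0.31). Gabrb2 in males had 104, 60.8, 75.9, 93.2 and 81.2 CPM after fentanyl against 126, 106, 136, 117 and 91.9 CPM after water (log2 -0.44, edgeR adjusted p = 0.18). Gabra3 in females had a log2 difference of -0.43 (edgeR adjusted p = 0.55).

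The cortex score was lower in NAc fentanyl libraries, with means of 4.97 against 5.85 in females and 5.02 against 5.29 in males, and the score of striatal markers was higher, 8.49 against 7.81 and 8.42 against 8.19. Of the relations given above, Gabra4 and Gabrd fell with the cortex score, and Gabra3 and, by Pearson's r, Gabra5 rose with it. Gabra5 had an average log2 difference of -0.10 in NAc (edgeR adjusted p = 0.81). With the score of striatal markers as a covariate, no member was called in NAc males (3.23% of all genes) or on average (0.0%). The part of punch placement in the NAc differences was not tested. With the share of reads outside exons added to the fit, Gabra4 was called in males (0.56, edgeR adjusted p = 0.032, 1 of 7 against 1.62% of genes) and on average (0.40, adjusted p = 0.021), and Gabrd on average (0.41, adjusted p = 0.048), 2 of 7 against 2.02%. Without NAc male fentanyl 5, which had the lowest Gabra4 of the fentanyl males, Gabra4 was also called in males (0.52, edgeR adjusted p = 0.018) and on average (0.40, adjusted p = 0.049).

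No member was called in S1 in females (0.142% of 19748 genes), in males (0.0%) or on average (1.03%), with 1 of 7 at an unadjusted p under 0.05 in each (13.9%, 7.15% and 15.8% of all genes). The log2 differences in S1 females and males ran from -0.27 to 0.25, and the smallest adjusted p by edgeR was 0.34 in females, 0.69 in males and 0.30 on average. In PrL none was called in females (0.021% of 19074 genes), in males (0.0%) or on average (0.697%), with 0, 1 and 2 of 7 at an unadjusted p under 0.05 (9.53%, 12% and 19.1% of all genes). The log2 differences in PrL females and males ran from -0.34 to 0.19. There Gabra3 averaged 215 ± 19.3 CPM in fentanyl and 199 ± 12.5 CPM in water libraries (log2 0.14, edgeR adjusted p = 0.19), Gabra4 133 ± 12.1 and 126 ± 7.46 CPM (0.11, adjusted p = 0.26), and Gabrd 39.5 ± 3.39 and 44.9 ± 8.36 CPM (-0.16, adjusted p = 0.31). The lowest PrL value was that of Gabra5 in males, with 59.5, 61.6, 58.1, 28.9 and 30.0 CPM after fentanyl against 51.6, 54.3, 86.5, 60.1 and 54.3 CPM after water (-0.34, edgeR adjusted p = 0.49; male minus female -0.51, adjusted p = 0.999). Fentanyl males 4 and 5, the pair below every water male here, also had the least Gabra5 of the fentanyl males in S1 (19.3 and 16.6 CPM against 26.8 to 42.5), in VTA (14.1 and 16.6 CPM against 22.5 to 24.9) and in NAc (22.9 and 30.0 CPM against 40.0 to 57.4), and the most in VBT (5.17 and 3.88 CPM against 2.60 to 3.25). This pattern was singled out after its values were seen and was not tested. The PrL water groups held 2 libraries with high olfactory bulb scores, female 5 and male 3, at 5.35 and 6.35 against at most 3.15 in the rest, and without them no PrL member was called either.

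**Figure D5:**
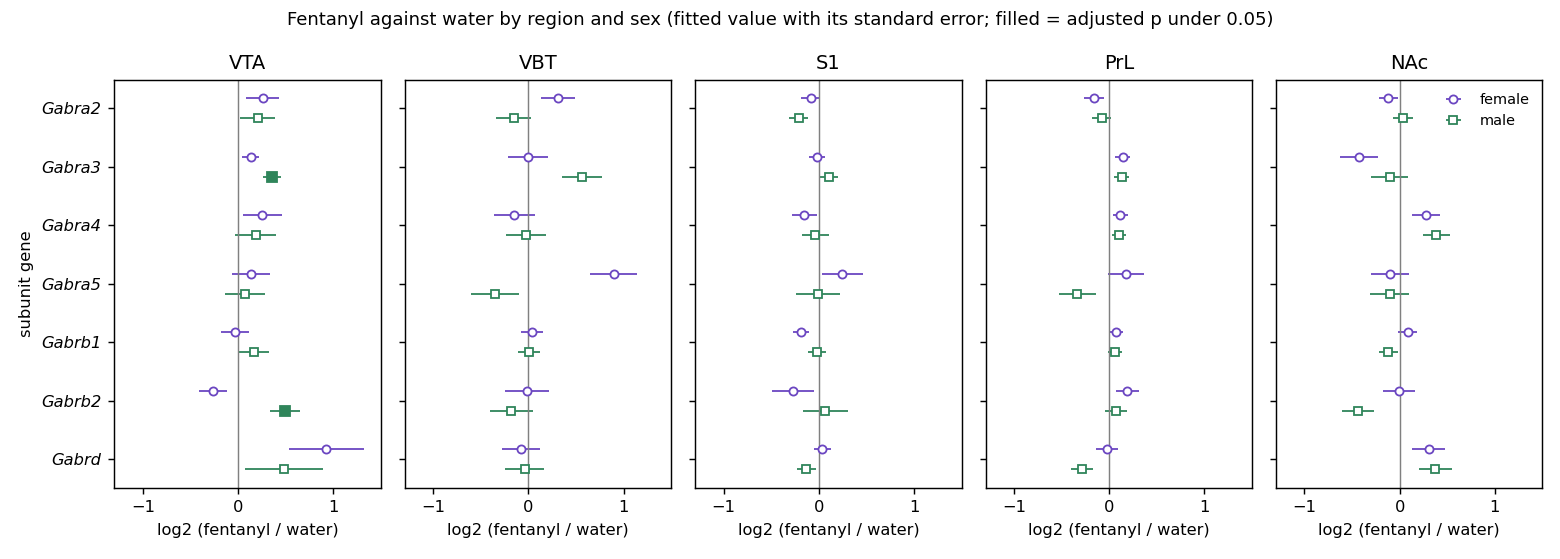
Fitted log2 ratio of fentanyl to water (horizontal axes) of the 7 subunit genes (vertical axis) in each region, for females (purple circles) and males (green squares), with bars of 1 standard error and filled symbols for an adjusted p under 0.05. The only filled symbols are Gabra3 and Gabrb2 of VTA males, at 0.36 and 0.49.

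With all 98 libraries, the subunit mix did not pass the test in any comparison of fentanyl with water. Of 105 two-sided exact permutation tests (7 shares, 5 regions, each sex and their average), 10 had an unadjusted p under 0.05 and none an adjusted one, with a smallest adjusted p of 0.45. With 5 libraries against 5, the smallest exact p is 0.0079. In NAc the Gabra4 share was 20.1% ± 3.0 in fentanyl and 16.6% ± 1.61 in water libraries (n = 10 each), a difference of 3.53 points (exact permutation p = 0.0043, adjusted p = 0.45), and without NAc male fentanyl 5 its adjusted exact permutation p was 0.046. The Gabrd share was 22.7% ± 3.76 and 18.6% ± 3.60, a difference of 4.07 points (exact permutation p = 0.025, adjusted p = 0.45). In VTA females the Gabrb2 share was 22.1% ± 2.35 against 27.4% ± 4.31 (n = 5 each, exact permutation p = 0.040, adjusted p = 0.45). In VBT the shares after fentanyl were 32.4% ± 1.70 for Gabra4, 25.8% ± 3.20 for Gabrd and 10.2% ± 5.59 for Gabra3, where water libraries had 33.3%, 26.2% and 8.17% ± 3.49.

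Another 29 genes of GABA signalling were followed as lists: 12 other subunits, 7 genes of GABA synthesis, uptake and breakdown, 8 of receptor anchoring and trafficking, and 2 of the GABA-B receptor. Between water regions, 25 of the 29 passed the filter on low counts, and from 12 (S1 and PrL) to 22 (VBT and S1) of them were called in a pair, where 39.5% and 69.8% of all genes were called. Gabrq and Gabre, the theta and epsilon subunit genes, were high where Gabra4 and Gabrd were low. Gabrq averaged 45.0 CPM in VTA water libraries and at most 3.83 CPM elsewhere, and was 27.1-fold higher in VTA than in VBT (edgeR adjusted p = 5.8e-18). Gabre averaged 8.04 CPM in VTA and at most 1.38 CPM elsewhere, 14.0-fold higher in VTA than in VBT (adjusted p = 4.7e-15).

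For fentanyl, edgeR called none of the 29 in VBT, S1, PrL or NAc in any contrast, nor in VTA females. In VTA males 6 of 28 tested were called as higher and 2 as lower, and on average 4 and 1. These 8 and 5 of 28 stand near the shares of all genes called, 22.0% in males and 23.1% on average. Against 11% of all genes called as higher in males, 3 of 11 subunits rose there, including Gabrg1, a gamma subunit gene of glia and some neurons (0.47, edgeR adjusted p = 0.032). Of the anchoring genes 3 of 8 rose, among them Gphn, which encodes the scaffold gephyrin (0.22), and the palmitoyltransferase gene Zdhhc3 (0.33). Nlgn2, the adhesion molecule of inhibitory synapses (-0.43, edgeR adjusted p = 0.0030), and Lhfpl4, which ties the receptor to it (-0.23), fell. With the offsets for GC content Nlgn2 had -0.03 (edgeR adjusted p = 0.80), Lhfpl4 0.02 (adjusted p = 0.93) and Gabrg1 0.14 (adjusted p = 0.44) in males, so the falls of Nlgn2 and Lhfpl4 were not seen on that scale. Zdhhc3 (0.31, adjusted p = 0.063) and Gphn (0.19, adjusted p = 0.16) lost their calls there with differences close to those without offsets. None of the 7 synthesis and uptake genes was called. With the offsets, 1 of the 28 was called in males (3.62% of all genes) and 1, Gabbr2, on average (4.32%).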

How the data were processed

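Per the labels' protocols, 10 ng of RNA, purified by Trizol and column, went into each SMART-Seq v4 library. The authors deposited raw counts per Ensembl gene for each library, made with HTSeq on GRCm38, per the submitters' processing notes; the aligner and annotation release are not given in the sources used here. Each file also has 5 lines of reads not assigned to a gene (16.2 to 24.0% of reads), which were left out. Symbols, positions, merged exon lengths and GC contents came from GENCODE M21 for 55154 of 55335 identifiers.

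CPM (counts per 1e6) used the total over genes, and RPKM the exon length. Intervals of log2 differences are approximate, 1.96 standard errors to each side. Each region was fitted alone with edgeR 4.0.16 (TMM, filterByExpr on the 4 groups, robust quasi-likelihood F-test) in R 4.3.3, and p-values were adjusted over all genes tested. The fits were tested on simulated counts, which held no trend in GC content. In male contrasts, 47 (NAc) to 67 (VBT) of 100 genes changed 1.5-fold were recovered, and 64 (S1 and NAc) to 72 (PrL) of 100 changed 2-fold. A member that was not called may therefore still differ. Shares were tested by exact permutation, and figures and correlations were made in Python 3.11.15. Alternatives were DESeq2 1.42.0, its size factors, no filter, a replicate block, offsets for GC content or exon length, covariates, and leaving out libraries. No 2 libraries of a group held like counts (at least 25688 genes differed).

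The members, lists, named genes (the 7 members, listed genes that were called or for their level, and the 2 genes most like each member, of which some are not reported here) and alternatives were chosen with earlier results of these data known. The fit without 2 PrL libraries was chosen after seeing the data.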

Additional observations from a re-analysis of the deposited data

Results flagged for a closer look

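In 4 of 140 groups of 4 or 5 libraries, 1 library lay far from the others by Dixon's criterion at 95%, where chance alone gives about 7. Gabra4 in VBT male water 3 was 188 CPM, against 377 to 419 CPM in the other 4, and this library had the highest GABA neuron score of its group, 7.40. Gabra2 in PrL male water 5 was 82.9 CPM against 116 to 129 CPM. Gabra5 in PrL male water 3 was 86.5 CPM against 51.6 to 60.1 CPM, and this library had the high olfactory bulb score given above. Gabra3 in VTA female fentanyl 3 was 96.9 CPM against 122 to 130 CPM.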

How the results depend on the processing

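The count of members called in VTA males, 2 as reported, was 1 with no filter on low counts (9.24% of all genes called), 1 with the replicate block (18.9%), 1 with the VTA marker score as a covariate (9.04%), 0 with offsets for GC content (3.62%) and 0 with VTA male water 3 kept (0.216%). With the share of reads outside exons in the fit the count was 2, Gabra3 and Gabrb1 (27%). Gabrb2 lost its call at similar sizes, against 0.49 as reported. It had 0.48 without the filter (edgeR adjusted p = 0.081), 0.47 with the block (0.084) and 0.44 with reads outside exons (0.068). With VTA male water 3 kept, Gabra3 had 0.32 (SE 0.10, edgeR adjusted p = 0.17) and Gabrb2 0.81 (SE 0.77). For the VTA average, 1 as reported, the count was 2 with DESeq2 (26.4%), 2 with the marker score (13.6%), 0 with GC offsets (4.32%) and 0 with VTA male water 3 kept (0.309%). For NAc, 0 as reported, the share of reads outside exons gave 1 in males (1.62%) and 2 on average (2.02%). Leaving out 1 library at a time gave 1 to 2 in VTA males, 1 to 2 in the VTA average, 0 to 1 in NAc males, 0 to 1 in the NAc average, 0 to 1 for the subunit mix, and 57 to 59 of 70 for the region pairs, and no call in any other region and contrast. The single mix call came without NAc male fentanyl 5 (Gabra4, exact permutation adjusted p = 0.046). For the region pairs other settings gave 57 to 60, and 43 with VTA male water 3 kept. In fentanyl libraries the S1 minus NAc difference was reversed for Gabra4 (-0.30, edgeR adjusted p = 0.033) and Gabrd (-0.34, adjusted p = 0.0100), neither of which was called in water. Gabra3 and Gabrb2 between VTA and NAc, as given above, and Gabra4 between PrL and NAc (-0.35, adjusted p = 0.012) were also called there and not in water, while Gabra3 between VBT and NAc (-0.17, adjusted p = 0.24) and Gabra5 between S1 and NAc (-0.41, adjusted p = 0.055) were called in water only. The cause of these changes was not tested. Within a region, replicate numbers did not pair fentanyl with water libraries. Over 48 same-numbered pairs correlations ran from -0.26 to 0.24 with a median of 0.027, and 12 fentanyl libraries correlated best with their own number. For the region pairs the block gave 58 calls against 57, by adding Gabrb1 between VBT and S1 (-0.20, edgeR adjusted p = 0.037). Beside this count and that of VTA males it changed no count of calls. Depth limits Gabrd in VTA, with as few as 5 reads.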

Other observations

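VTA male water 3, the library left out, had 2458 reads of Gabra3, 3600 of Gabra4, 3762 of Gabrb1 and 513 of Gabrd, and 0 of Gabra2, Gabra5 and Gabrb2. Its 218 CPM of Gabra4 and 31.1 CPM of Gabrd lay above every other VTA library, where Gabra4 reached at most 43.3 CPM and Gabrd at most 1.91 CPM.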
